A study of Mus musculus with 3 samples.

Results

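Aquaporins are membrane channels that let water, and in some members glycerol or hydrogen peroxide, cross the membranes of cells. In the colon they sit in the epithelium that takes water up from the lumen and in the vessels beneath it. Aqp8 lies on the luminal side of absorptive cells and also carries hydrogen peroxide, Aqp4 lies on the basolateral side of epithelial cells, and Aqp1 is a water channel of vessel walls and red blood cells. Aqp3 belongs to the members that also carry glycerol, and Aqp11 is a divergent member found on internal membranes. These 5 genes were chosen by their symbols out of 12 aquaporin genes among the 32285 genes of the count matrices, and their unique molecular identifiers (UMIs, 1 per captured transcript molecule) were read in every cell kept.

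The data are 3 single-cell RNA-seq libraries of dissociated mouse colon, made with 10x Genomics 3' v3 reagents. Germ-free mice colonized by a strain labelled BT mutant gave 1 library, those colonized by BT WT another, and those given PBS the last. All groups therefore share a germ-free host. The labels do not spell out BT, name the mutated gene, or give the mouse strain, age, number of animals, time after colonization or part of the colon.

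Cells were barcodes with at least 300 genes and at most 25% mitochondrial UMIs, and 6138 of 8195 BT mutant, 7070 of 8829 BT WT and 3198 of 4425 PBS barcodes were kept, with medians of 3355, 3845 and 3671.5 UMIs in that order. Each group is 1 library, so no difference has a replicate check, no test between groups was possible, and intervals cover counting error only. Levels are counts per 1e+06 UMIs (CPM), from pooled UMIs of all cells that share a class and library, with exact Poisson 95% intervals. Between 16 and 23 kept barcodes per library also occur in another library. The PBS library stands apart in its colonocyte-like cells: 335 of 375 lie in a cluster that holds no BT mutant and no BT WT cell, and the median depth of the 375 cells is 21018 UMIs, against 3347 in BT mutant and 3966 in BT WT colonocyte-like cells.

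Classes were called from markers of clusters made without the aquaporins. The colonocyte-like class (20 markers, among them Slc26a3, Car1 and Krt20) had summed marker levels of 40286, 32462 and 47934 CPM in BT mutant, BT WT and PBS cells, while B-like cells had 1553, 1380 and 2559 CPM. A deep epithelial cluster led by Gsdmc4, Hao2, Gsdmc2 and Car2 got no class name and is called Gsdmc4-led. A secretory cluster led by Mptx1, Spink4 and Agr2 is called Mptx1-led, and a shallow cluster led by Guca2b, with 743 of its 985 cells from PBS, is called Guca2b-led. Whether the Guca2b-led cells are of the same kinds in each library was not tested. Dividing crypt-like cells are led by Mki67 and other cell-cycle genes but also by the hormone genes Gcg and Pyy. With goblet-like and tuft-like cells these make 7 epithelial groups.

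In the GENCODE M21 annotation of GRCm38, which is the mm10 build named by the submitters, Aqp8 spans chr7:123462291-123468004 on the plus strand with 6 exons. Aqp11 lies on the minus strand of the same chromosome at chr7:97724006-97738289 with 3 exons. Aqp1 lies at chr6:55336432-55348555 (plus strand, 4 exons) and Aqp3 at chr4:41092722-41098183 (minus strand, 6 exons). No other annotated gene overlaps these 4 genes.

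Aqp8 was highest in absorptive epithelium and Aqp1 in vessel wall cells, so their upstream sequences are shown for comparison. Each is the 250 bases before the RefSeq start (GRCm38.p6), at chr7:123462044-123462293 for Aqp8 and chr6:55336049-55336298 for Aqp1, both on the plus strand, and capitals mark matches on either strand to the HNF4 core CAAAG, the CDX core TTTAT, the GATA core AGATAA, the ETS core GGAAG, the TATA box TATAAA or the GC box GGGCGG.
Aqp8: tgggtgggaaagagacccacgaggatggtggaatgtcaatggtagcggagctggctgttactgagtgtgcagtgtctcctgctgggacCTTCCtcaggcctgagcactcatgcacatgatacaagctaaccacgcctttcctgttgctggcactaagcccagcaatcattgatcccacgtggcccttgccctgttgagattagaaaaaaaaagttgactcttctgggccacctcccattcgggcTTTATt
Aqp1: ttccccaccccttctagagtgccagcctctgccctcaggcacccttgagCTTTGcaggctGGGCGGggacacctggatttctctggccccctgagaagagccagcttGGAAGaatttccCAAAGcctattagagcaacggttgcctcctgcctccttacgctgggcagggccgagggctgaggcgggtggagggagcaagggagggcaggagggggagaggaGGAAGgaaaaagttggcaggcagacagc
The Aqp8 window holds 1 CDX core and 1 ETS core, and the Aqp1 window holds 2 ETS cores, 2 HNF4 cores and 1 GC box. Short motifs of this kind are common: of 32851 promoter windows of the same length, 37.3% hold the CDX core, 64.1% the ETS core, 48.6% the HNF4 core, 32.7% the GC box, 12.4% the TATA box and 9.99% the GATA core. A match describes these letters only and is not a binding site.

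Aqp8 was the aquaporin with the most UMIs, and it was a colonocyte gene. The colonocyte-like cells held 92.0% of its 11960 UMIs in the BT mutant library, 85.1% of 25239 in BT WT and 88.6% of 20846 in PBS. Its level in those cells was 559.7 CPM (549.3 to 570.3) in BT mutant, 1189 CPM (1173 to 1205) in BT WT and 1821 CPM (1795 to 1848) in PBS, so the 3 libraries were in the order BT mutant, BT WT, PBS with no overlap of their intervals. The Guca2b-led shallow cells had the same order at lower levels, 224 CPM in BT mutant, 428 CPM in BT WT and 732 CPM in PBS. Their median depths were 944, 908 and 873 UMIs. B-like cells, which should lack Aqp8, had the same library order, and the part of background in the Guca2b-led values was not tested.

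Outside the absorptive cells Aqp8 UMIs were found at lower levels than in colonocyte-like cells in every class. B-like cells, which should lack it, had 22.96, 45.5 and 91.9 CPM in BT mutant, BT WT and PBS, and Aqp8 UMIs in 6.36%, 12.4% and 26.6% of cells at median depths of 2768, 2851 and 3493 UMIs. The Gsdmc4-led cells had 18.5, 34.9 and 47.7 CPM and the dividing crypt-like cells 6.01, 26.3 and 17.2 CPM. Mptx1-led cells had 17.1, 24.2 and 29.99 CPM. All lie below the CPM of B-like cells in the same library, but these groups were deeper, with Gsdmc4-led medians of 22596, 23666 and 36190.5 UMIs. The 412, 205 and 104 Gsdmc4-led cells held 214, 247 and 228 Aqp8 UMIs. The 1116, 1337 and 1021 B-like cells held 77, 180 and 351. How much of the Aqp8 in these groups is background was not tested. Macrophage-like cells had 51.9, 178 and 256 CPM, and an unnamed cluster that carries B cell markers had 363.5, 778 and 362 CPM; doublets were not removed, and their part in these values was not tested. Endothelial-like cells had 61.1, 52.6 and 30.1 CPM and fibroblast-like cells 30.9, 92.2 and 70.0 CPM.

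**Figure D1:**
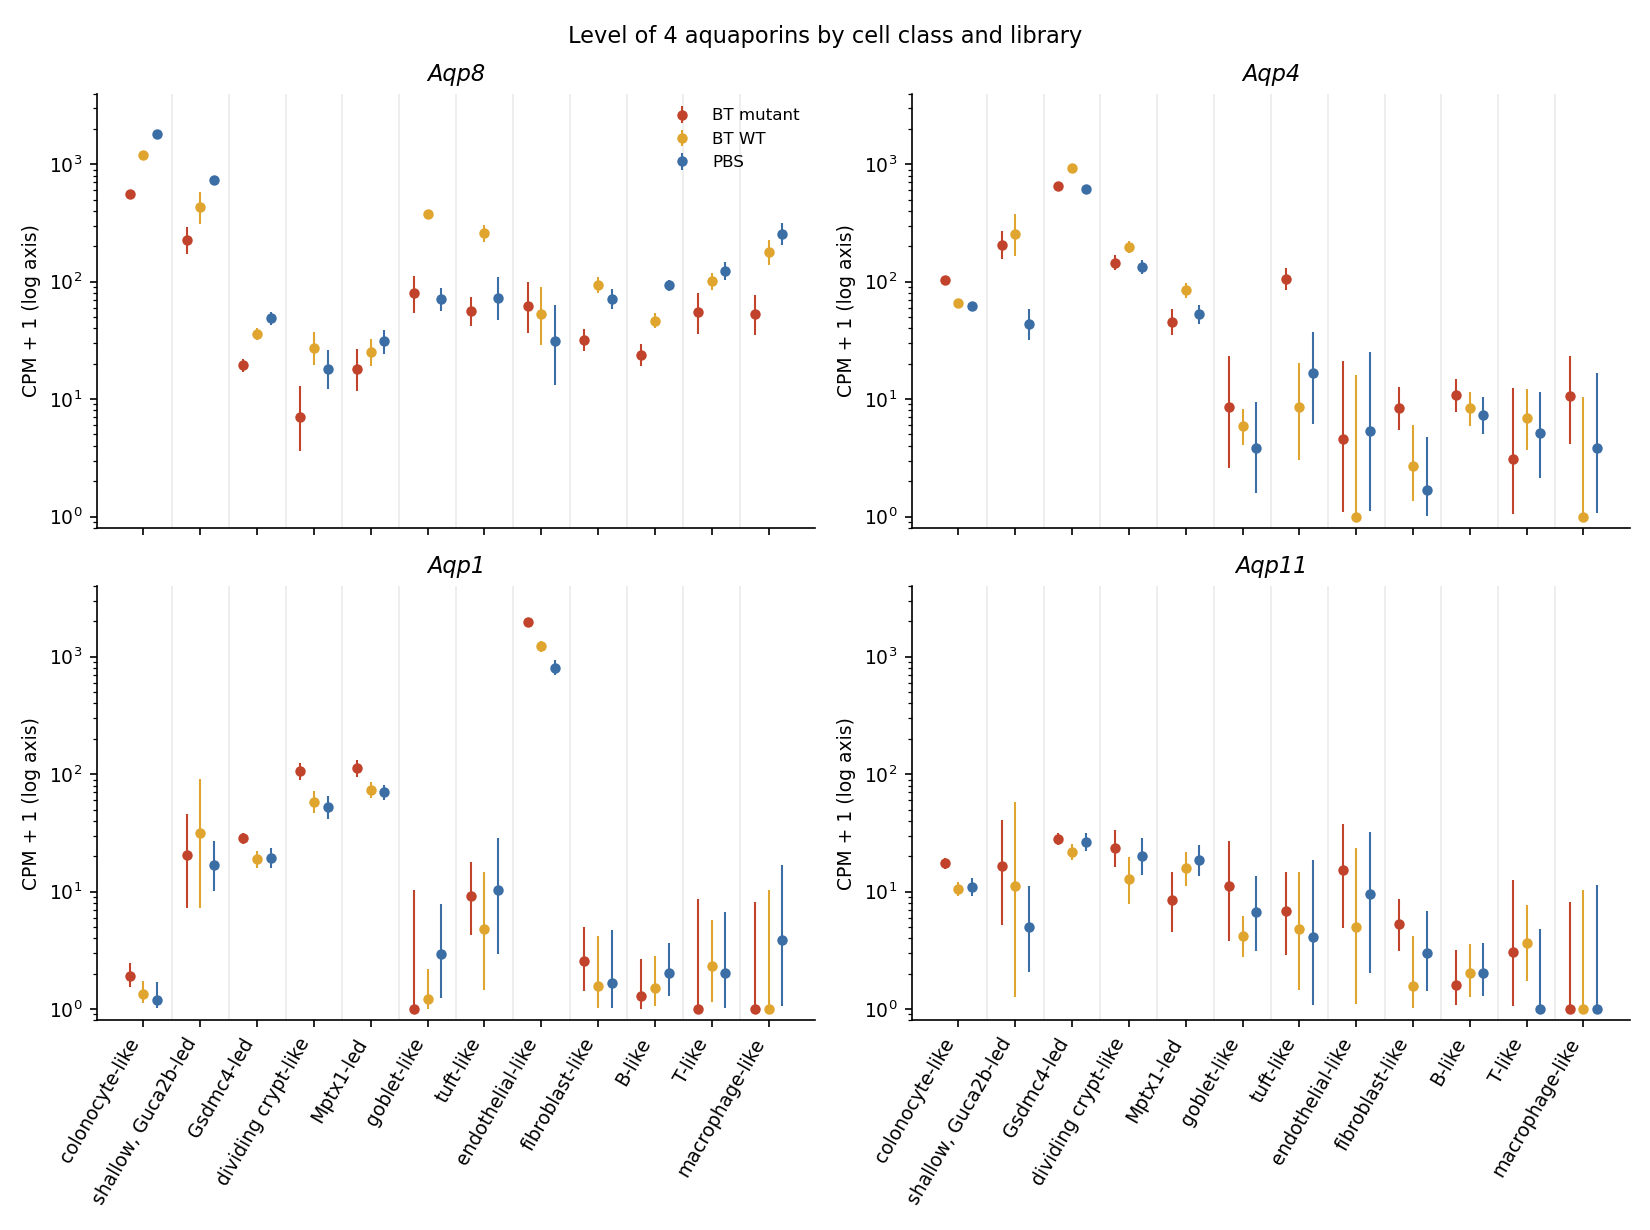
Level of Aqp8, Aqp4, Aqp1 and Aqp11 (CPM plus 1, log axis) in 7 epithelial groups and 5 other classes, left to right, for the BT mutant, BT WT and PBS libraries; points are levels and bars exact Poisson 95% intervals, which cover counting error only. Aqp8 is highest in colonocyte-like cells, Aqp4 in Gsdmc4-led cells and Aqp1 in endothelial-like cells in all 3 libraries, and the Aqp11 points stay below 30 CPM throughout.

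Between libraries, the BT mutant colonocyte-like cells had 0.471 times the Aqp8 level of BT WT cells (95% interval 0.460 to 0.482, log2 ratio -1.07) and 0.307 times that of PBS cells (0.3001 to 0.3146, log2 ratio -1.68). BT WT cells had 0.653 times the PBS level (0.640 to 0.666, log2 ratio -0.61). A difference was called at 1.5-fold or more on log2(CPM + 10) with at least 20 UMIs over both libraries. By that rule Aqp8 was the only member called lower in colonocyte-like cells, where 3.79% of 12080 genes were called lower in BT mutant over BT WT, 4.53% in BT mutant over PBS and 7.46% in BT WT over PBS. The comparisons with PBS share that library. In Guca2b-led cells Aqp8 was also called lower, at 0.524-fold in BT mutant over BT WT (10.2% of genes called lower), 0.306-fold in BT mutant over PBS (13.5%) and 0.585-fold in BT WT over PBS (22.1%). The BT mutant over BT WT call there was lost in cells of 500 to 2000 UMIs (0.718-fold, 0.368 to 1.42, 130 and 76 cells) and in cells with up to 10% mitochondrial UMIs (0.854-fold, 0.425 to 1.74).

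The BT WT over PBS difference is the least firm of these. It fell short of the 1.5-fold rule in 8 of 18 alternatives, with a log2 ratio of -0.34 when the libraries were clustered apart. In that setting the class took in clusters led by Hao2 (242 cells) and Gsdmc4 (273 cells) in BT mutant. In PBS it took in one led by Hao2 (72 cells). The BT WT cluster led by Gsdmc4 (225 cells) got no class name, so the class held unlike sets of cells. Both comparisons of BT mutant were called in all 18.

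The lower BT mutant level was also seen inside subsets of the colonocyte-like cells. Against BT WT it was 0.441-fold in cells of 500 to 2000 UMIs, 0.498-fold in cells above 2000 and up to 8000 UMIs and 0.491-fold above 8000 UMIs. It was 0.463-fold in cells with up to 10% and 0.478-fold in cells with over 10% mitochondrial UMIs. The BT mutant and BT WT cells lie largely in different clusters: 139 of 2883 BT mutant cells and 2370 of 3215 BT WT cells were in the cluster led by Ifit1bl1. Within single clusters the BT mutant over BT WT fold was 0.430 (Slc17a4-led), 0.547 (Slc13a1-led), 0.484 (Ifit1bl1-led) and 0.4999 (Car1-led).

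Markers of position along the gut also differed between libraries, and their part in the Aqp8 difference was not tested. Hoxb13, a homeobox gene of the distal colon, was at 114 CPM in BT mutant, 223 CPM in BT WT and 126 CPM in PBS colonocyte-like cells, and the summed level of 10 posterior Hox genes was 187, 321 and 189 CPM in the same order. Among colonocyte-like cells above 8000 UMIs, 63.8% of 481 BT mutant, 93.1% of 334 BT WT and 84.1% of 308 PBS cells had a Hoxb13 UMI. In those with a Hoxb13 UMI, Aqp8 was at 651 CPM in BT mutant, 1039 CPM in BT WT and 1842 CPM in PBS. In those without one it was at 264 CPM in 174 BT mutant cells, 1312 CPM in 23 BT WT cells and 1597 CPM in 49 PBS cells. The BT mutant over BT WT fold in the Hoxb13 cells was 0.627 (0.604 to 0.650), nearer to 1 than the 0.491 of all cells at that depth but still below it.

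**Figure D2:**
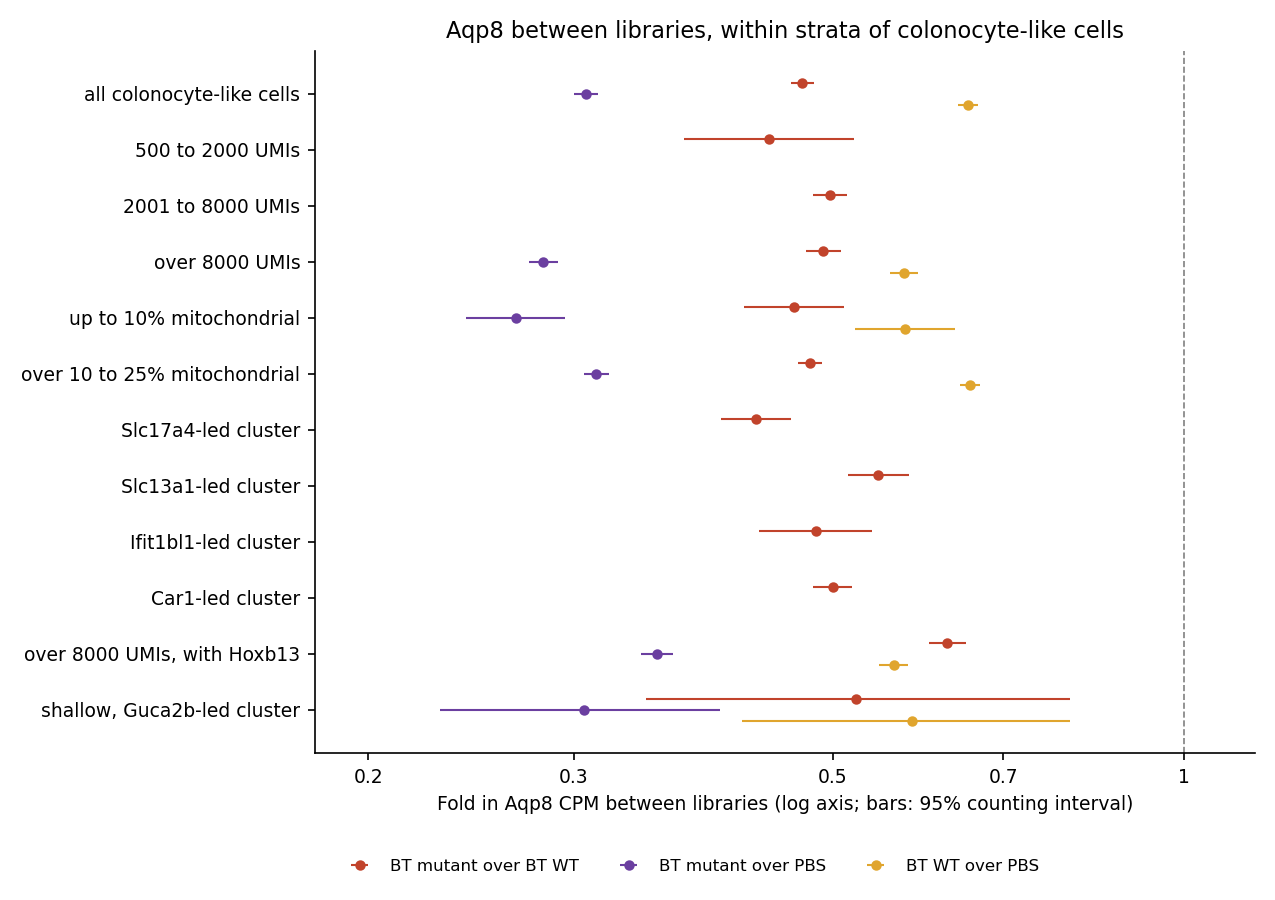
Fold in Aqp8 CPM between libraries (horizontal log axis, dashed line at 1) for all colonocyte-like cells and for subsets by depth, mitochondrial share, cluster and Hoxb13, with the Guca2b-led cluster at the bottom; points are folds and bars exact 95% counting intervals. Every fold and every interval shown lies below 1, and BT mutant over BT WT runs between 0.430 and 0.627. Comparisons with fewer than 50 cells in a library are left out.

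Per cell, the lower BT mutant level showed as fewer cells with an Aqp8 UMI and fewer with over 3 after thinning. A thinned cell without a UMI need not lack the transcript. With every cell thinned to 1000 UMIs, 37.4% of 2802 BT mutant, 64.4% of 3108 BT WT and 71.3% of 356 PBS colonocyte-like cells had an Aqp8 UMI, against 68.3%, 91.4% and 92.8% before thinning. In B-like cells the thinned shares were 1.81%, 4.69% and 8.06%. Cells with over 3 Aqp8 UMIs in 1000 made up 1.89% of BT mutant, 7.46% of BT WT and 16.3% of PBS cells. The 10% of cells with most Aqp8 held 58.3% of all Aqp8 UMIs in BT mutant, 39.8% in BT WT and 38.7% in PBS colonocyte-like cells; this share is of unthinned UMIs and also moves with how depth is spread over cells.

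**Figure D3:**
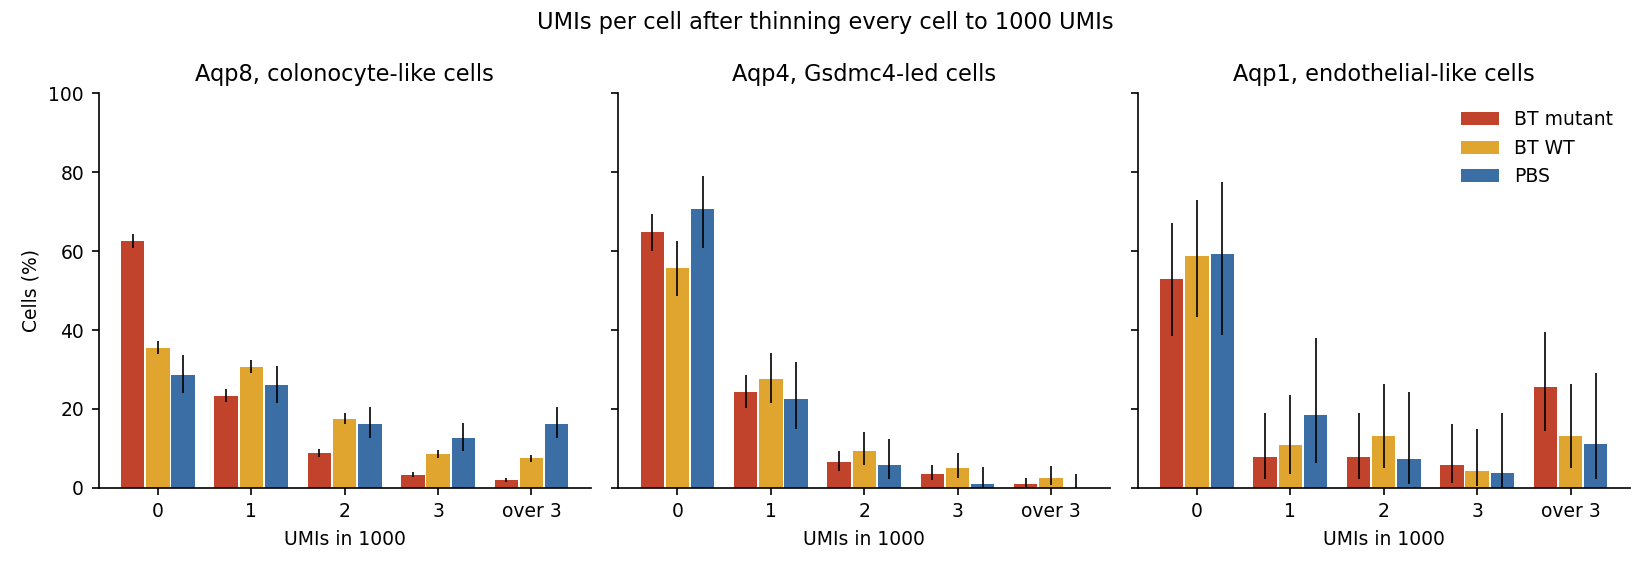
Share of cells (%) with 0, 1, 2, 3 or over 3 UMIs of Aqp8 in colonocyte-like, Aqp4 in Gsdmc4-led and Aqp1 in endothelial-like cells, after thinning each cell to 1000 UMIs; bars are shares in the BT mutant, BT WT and PBS libraries and lines exact Clopper-Pearson 95% intervals. For Aqp8, cells at 0 make up 62.6% of BT mutant, 35.6% of BT WT and 28.7% of PBS cells, while the intervals of the libraries overlap at every count of Aqp1.

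Goblet-like and tuft-like cells showed another order for Aqp8. Goblet-like cells had 78.8 CPM in BT mutant, 376 CPM in BT WT and 69.9 CPM in PBS, and tuft-like cells 55.3, 258 and 72.2 CPM. The PBS values of both lie below the 91.9 CPM of PBS B-like cells, but at median depths of 8286 and 8188 UMIs, against 3493. They rest on 73 UMIs in 121 goblet-like and 23 in 39 tuft-like cells. How much of them is background was not tested, so the folds over PBS are taken against a level that may be background. In goblet-like cells BT WT was 5.38-fold above PBS (4.26 to 6.90), where 9.92% of genes were called higher. BT mutant was 0.209-fold of BT WT there (0.142 to 0.298), where 11.4% were called lower. The 20 colonocyte markers were also highest in BT WT: their sum in goblet-like cells was 13336 CPM in BT mutant, 16932 CPM in BT WT and 11137 CPM in PBS. In tuft-like cells the sums were 7281, 8628 and 3370 CPM. Aqp8 in BT mutant over PBS was 0.765-fold there (0.456 to 1.32) and was not called. The part of the colonocyte markers in the Aqp8 differences was not tested, and doublets were not removed. In tuft-like cells BT mutant was 0.214-fold of BT WT, where 8.59% of genes were called lower, and BT WT 3.58-fold above PBS, where 10.6% were called higher. Of the 137 Aqp8 UMIs in BT WT tuft-like cells, 50 came from 1 cell.

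Aqp4 was an epithelial gene of another cell group. The gene, at chr18:15389496-15410982 on the minus strand with 5 exons, overlaps an antisense gene on the plus strand, AC133525.2. Whether counting used strand is not given in the sources used here, and the part of the overlap in the Aqp4 counts was not tested. The Gsdmc4-led cells held 76.1% of its 22505 UMIs over all libraries and the 7 epithelial groups together 98.7%. Its level in Gsdmc4-led cells was 655 CPM (640 to 670) in BT mutant, 937 CPM (914 to 959) in BT WT and 609.6 CPM (588 to 632) in PBS, and B-like cells had 9.84, 7.33 and 6.28 CPM. Dividing crypt-like cells had 144, 198 and 133 CPM, above colonocyte-like cells (102, 64.3 and 60.8 CPM) and Mptx1-led cells (44.6, 83.8 and 51.8 CPM). In BT WT the Mptx1-led level was above that of colonocyte-like cells. In Mptx1-led cells BT mutant was 0.532-fold of BT WT (0.391 to 0.715), where 5.01% of genes were called lower, and BT WT 1.62-fold above PBS (1.28 to 2.05), where 1.22% were called higher. Guca2b-led cells had 205 CPM in BT mutant, 255 CPM in BT WT and 42.7 CPM in PBS, so BT mutant was 4.80-fold and BT WT 5.97-fold above PBS, where 18.8% and 21.1% of genes were called higher. The BT mutant over PBS fold there was 2.11 (1.10 to 3.86) in cells of 500 to 2000 UMIs and 2.43 (1.23 to 4.56) in cells with up to 10% mitochondrial UMIs. With libraries clustered apart, a shallow BT mutant cluster (273 cells, median 1230 UMIs) was led by Gsdmc4, Gsdmc2 and Car1. A shallow PBS cluster (651 cells, median 834 UMIs) was led by Lars2. The part of unlike cells in the Guca2b-led folds was not tested. Goblet-like cells, at 7.62, 4.87 and 2.87 CPM, were not above the B-like level.

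In the Gsdmc4-led cells BT WT had 1.54 times the PBS level of Aqp4 (1.47 to 1.60, log2 ratio 0.61), where 0.792% of 10858 genes were called higher. BT mutant had 0.699 times the BT WT level (0.676 to 0.723, log2 ratio -0.51) and 1.07 times the PBS level (1.03 to 1.12, log2 ratio 0.10), neither of which reached 1.5-fold. BT WT cells were thus highest. With cells of up to 10% mitochondrial UMIs only, where 32 PBS cells were left, the log2 ratios over PBS were 0.92 for BT mutant and 1.51 for BT WT. In cells over 10% and up to 25%, 72 of them PBS, BT WT over PBS was 1.42-fold (1.36 to 1.49, log2 ratio 0.50) and the call was lost. Hoxb13 was also highest in BT WT here, at 67.1 CPM in BT mutant, 194 CPM in BT WT and 156 CPM in PBS, and in cells above 8000 UMIs with a Hoxb13 UMI Aqp4 was at 714 CPM in BT mutant, 935 CPM in BT WT and 625 CPM in PBS.

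In colonocyte-like cells Aqp4 had another order. BT mutant was 1.59-fold above BT WT (1.48 to 1.71), where 3.58% of genes were called higher, and 1.68-fold above PBS (1.53 to 1.84), where 6.3% were. The call over PBS was lost in the 2604 BT mutant cells over 10% mitochondrial UMIs (1.51-fold, log2 ratio 0.52), while the fold was 4.70 (2.998 to 7.79) in cells of up to 10%, with 57 PBS cells. Above 8000 UMIs BT mutant and BT WT were at 162 and 154 CPM, a fold of 1.05 (0.973 to 1.13). Within the Car1-led cluster they were at 167 and 207 CPM, a fold of 0.806. That cluster held 19.2% of BT mutant and 6.38% of BT WT colonocyte-like cells. BT mutant over PBS above 8000 UMIs was larger, at 2.65-fold (2.42 to 2.91), and BT WT over PBS there was 2.53-fold (2.29 to 2.80), against 1.06-fold over all depths.

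Detection of Aqp8 was read in cells with and without an Aqp4 UMI, as a description. In thinned colonocyte-like cells, Aqp8 was found in 11 of the 77 BT mutant cells with an Aqp4 UMI (14.3%) and in 38.1% of those without one. The BT WT values were 23 of 49 cells (46.9%) and 64.7%, and in PBS 3 of 12 cells, and 73.0% of those without. In Gsdmc4-led cells, where 35.2% of BT mutant, 44.3% of BT WT and 29.4% of PBS cells had an Aqp4 UMI after thinning, 3.42%, 5.42% and 4.90% had an Aqp8 UMI, against 1.81%, 4.69% and 8.06% of B-like cells. There, 2 of 144 BT mutant, 4 of 90 BT WT and 3 of 30 PBS cells with Aqp4 also had Aqp8. Across 41 combinations of class and library with at least 50 cells, Aqp8 and Aqp4 levels had a Pearson r of 0.01, which is given as a description since the points share libraries.

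**Figure D4:**
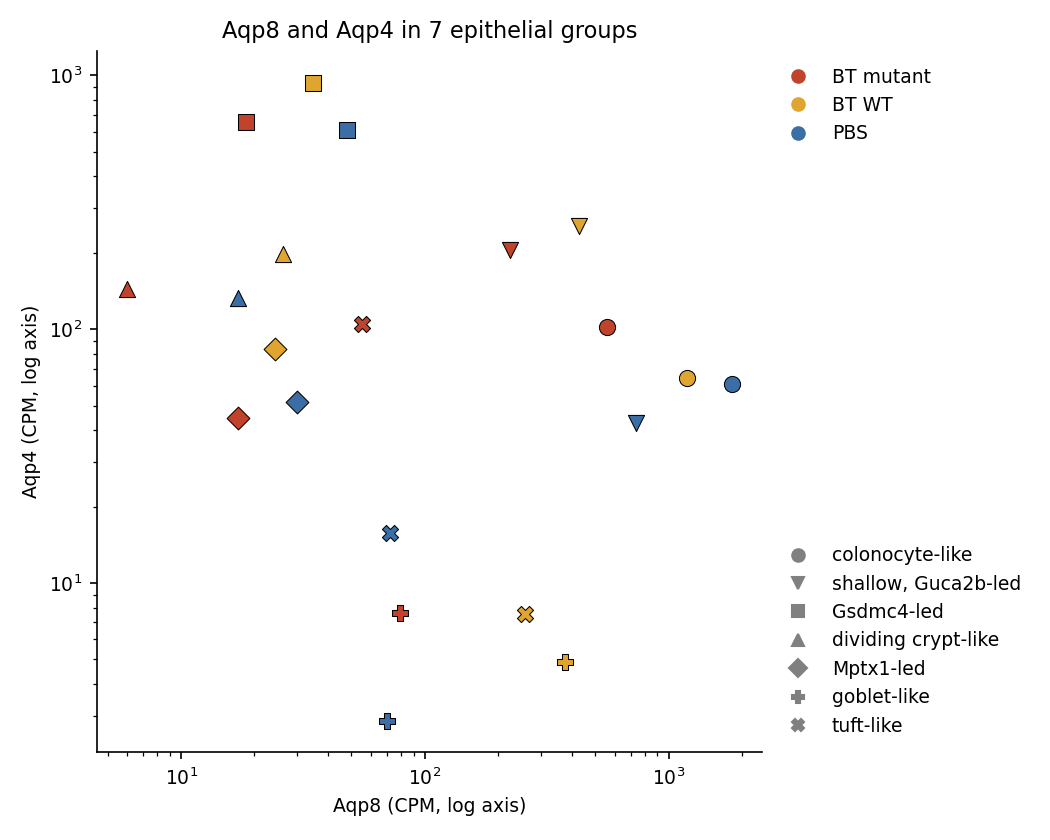
Aqp8 level against Aqp4 level (CPM, log axes) in the 7 epithelial groups, 1 point for each group in the BT mutant, BT WT and PBS libraries. Colonocyte-like cells lie at the right, at 559.7 to 1821 CPM of Aqp8 and 60.8 to 102 CPM of Aqp4, and Gsdmc4-led cells at the upper left, at 18.5 to 47.7 CPM of Aqp8 and 609.6 to 937 CPM of Aqp4.

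Tuft-like cells of the BT mutant library had 105 CPM of Aqp4, against 7.54 CPM in BT WT and 15.7 CPM in PBS. In BT mutant over BT WT 7.62% of genes were called higher in these cells. The 89 BT mutant UMIs came from 13 of 123 cells, 78 of them from 5 cells, and the cells with the gene had a median depth of 12133 UMIs, against 5286.5 in those without. After thinning, 0.893% of BT mutant tuft-like cells had an Aqp4 UMI. This value therefore rests on a few deep cells.

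Genes whose levels ran most like those of a member over the 41 points were taken from 7847 genes reaching 50 CPM. For Aqp8 they were Ces2c, a carboxylesterase, Car4, a membrane carbonic anhydrase, Saa1, serum amyloid A, Neu1, a lysosomal sialidase, and Atp12a, the colonic proton-potassium pump, with Pearson r from 0.89 to 0.91. Car4 and Saa1 are among the markers that named the colonocyte-like class. For Aqp4 they were Hao2, a peroxisomal hydroxyacid oxidase, Slc5a8, a monocarboxylate transporter, Slc39a5, a zinc transporter, Gsdmc4, a gasdermin, and Cyc1, cytochrome c1, with r from 0.94 to 0.96. Hao2, Slc5a8 and Gsdmc4 are among the leading genes of the Gsdmc4-led cluster.

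Aqp1 was the vessel aquaporin. Endothelial-like cells, in which all 14 endothelial markers were detected in every library, held 1040 of 2491 Aqp1 UMIs (41.8%). The level there was 1981 CPM (1819 to 2154) in 65 BT mutant cells, 1221 CPM (1087 to 1367) in 64 BT WT cells and 804 CPM (693 to 928) in 29 PBS cells. B-like cells had 0.298, 0.506 and 1.05 CPM and fibroblast-like cells 1.56, 0.569 and 0.673 CPM. Colonocyte-like cells had 0.915, 0.332 and 0.197 CPM, from 18, 6 and 2 UMIs.

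The BT mutant over BT WT fold in endothelial-like cells was 1.62 (1.41 to 1.87), BT mutant over PBS 2.46 (2.08 to 2.92) and BT WT over PBS 1.52 (1.26 to 1.83). The share of genes called higher by the same rule was 13.8%, 13.6% and 11.7%, so passing it is common in a class of this size. The PBS comparisons use fewer than 50 cells. Few cells carry the level: 5 cells gave 43.0% of the Aqp1 UMIs in BT mutant, 53.0% in BT WT and 79.1% in PBS. The share of cells with an Aqp1 UMI was 56.9% in BT mutant, 39.1% in BT WT and 44.8% in PBS, and 47.1%, 41.3% and 40.7% after thinning to 1000 UMIs, with overlapping intervals. When classes were taken from the markers of each cell, the BT WT over PBS log2 ratio was -0.20 in place of 0.60 and that of BT mutant over PBS 0.46 in place of 1.29, which ends both calls. With each cell weighing the same BT WT over PBS was 0.13. It also lost its call with a mitochondrial limit of 10% (0.42) and when thinned (0.44), and BT mutant over BT WT lost its call when thinned (0.56).

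Endothelial-like cells with and without an Aqp1 UMI were set side by side over all libraries, for vessel genes chosen after the values were seen. Only part of the genes read is given. Ackr1, Gja5, Rgcc, Kdr, Esm1 and Apln were among the others, so no pattern over vessel types is drawn. The 75 cells with Aqp1 had a median depth of 3030 UMIs and the 83 without it 2063. Cd36, a fatty acid transporter of capillaries, was at 3954 CPM in cells with Aqp1 and 2127 CPM in cells without it. Vwf was at 354 and 45.1 CPM and Selp, an adhesion molecule of venules, at 317 and 2.82 CPM, although 7 cells gave all Selp UMIs of the cells with Aqp1. The arterial gene Sema3g was at 37.2 CPM in cells with Aqp1 and 166 CPM in cells without it, and Hey1 at 14.9 and 56.4 CPM. Plvap was at 1118 and 1408 CPM, and the general marker Cdh5 at 912 and 652 CPM.

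A second site of Aqp1 was the crypt. The 7 epithelial groups held 55.0% of all Aqp1 UMIs. Mptx1-led cells had 111 CPM in BT mutant, 72.6 CPM in BT WT and 69.0 CPM in PBS, dividing crypt-like cells 105, 57.4 and 51.6 CPM, and Gsdmc4-led cells 27.5, 17.8 and 18.4 CPM. BT mutant was highest in each. By mitochondrial share this order did not hold in Gsdmc4-led cells, where the level at up to 10% was 36.6 CPM in 212 BT mutant, 24.7 CPM in 78 BT WT and 54.5 CPM in 32 PBS cells, and above 10% it was 20.002, 14.5 and 6.42 CPM. Of the 88 PBS UMIs in Gsdmc4-led cells, 43 came from 5 cells. In dividing crypt-like cells BT mutant over BT WT was 1.82-fold (1.38 to 2.42), where 2.84% of genes were called higher, and BT mutant over PBS 2.03-fold (1.53 to 2.71), where 2.32% were, from 46 BT mutant, 37 BT WT and 28 PBS cells. In Mptx1-led cells BT mutant over PBS was 1.62-fold (1.28 to 2.03), where 2.93% were called higher, and BT mutant over BT WT was 1.53-fold (1.22 to 1.93), short of the rule on the log2 scale with its pseudocount. Above 10% mitochondrial UMIs, with 26 BT mutant, 27 BT WT and 21 PBS Mptx1-led cells, BT mutant over PBS was 1.27-fold (0.736 to 2.18) and not called.

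Endothelial marker levels were low in those crypt cells, though less so in Mptx1-led cells of PBS. The 14 endothelial markers summed to 8.27, 5.54 and 3.30 CPM in dividing crypt-like cells and to 3.54, 2.97 and 3.14 CPM in Gsdmc4-led cells of BT mutant, BT WT and PBS, against 10806, 10632 and 8483 CPM in endothelial-like cells. In Mptx1-led cells the sums were 9.65, 10.3 and 44.6 CPM. Cdh5, the cadherin of endothelial junctions, had 0 UMIs in dividing crypt-like cells of every library. In BT mutant, Aqp1 was at 105 CPM beside 8.27 CPM of the 14 markers in dividing crypt-like cells, and at 1981 CPM beside 10806 CPM in endothelial-like cells. How much of the crypt Aqp1 is background was not tested. In dividing crypt-like cells 32 of 46 BT mutant, 23 of 37 BT WT and 20 of 28 PBS cells had an Aqp1 UMI, and 5 cells gave 43.9% of those UMIs in BT mutant, 47.0% in BT WT and 69.2% in PBS.

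The genes most like Aqp1 across the 41 points were Adgrg1, an adhesion receptor, Clca3a1, a marker of lymphatic endothelium, Ecscr, an endothelial surface protein, Epha4, an ephrin receptor, and Acer2, a ceramidase, with r from 0.91 to 0.94. Endothelial-like cells contribute 2 of those points, since PBS had fewer than 50.

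Aqp11 was low and epithelial. Of its 1438 UMIs, 95.9% lay in the 7 epithelial groups, and B-like cells had 0.596, 1.01 and 1.05 CPM in BT mutant, BT WT and PBS. Gsdmc4-led cells were highest with 27.1, 20.6 and 25.5 CPM. Dividing crypt-like cells had 22.6, 11.8 and 19.2 CPM, colonocyte-like cells 16.4, 9.52 and 9.96 CPM and Mptx1-led cells 7.43, 14.8 and 17.6 CPM, so the order of these 3 differed between libraries. The intervals of Gsdmc4-led and dividing crypt-like cells overlap in every library.

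In colonocyte-like cells Aqp11 in BT mutant was 1.72-fold above BT WT (1.43 to 2.08) and 1.64-fold above PBS (1.31 to 2.08), but at these low levels the log2 ratios with a pseudocount of 10 CPM were 0.43 and 0.40, below the rule. Each was past it in 3 of 14 alternatives, with ranges of 0.16 to 0.72 and 0.25 to 0.73. Within single clusters the BT mutant over BT WT fold was 0.647 (Slc17a4-led), 0.959 (Slc13a1-led), 1.55 (Ifit1bl1-led, 5 BT mutant UMIs) and 1.34 (Car1-led), none of them called. Pooled over libraries, Aqp11 was at 20.5 CPM in the Car1-led cluster, which held 19.2% of BT mutant and 6.38% of BT WT cells. The part of that cluster was not tested. In Mptx1-led cells BT mutant had 7.43 CPM, BT WT 14.8 CPM and PBS 17.6 CPM, from 10, 33 and 41 UMIs, and BT mutant over PBS was 0.423-fold (0.189 to 0.858), where 5.76% of genes were called lower. The direction thus differed from the uncalled one in colonocyte-like cells, from few UMIs. Aqp11 levels ran with those of Aqp4 over the 41 points (r = 0.83). The genes most like Aqp11 were Akr1c14, an aldo-keto reductase, Epha2, an ephrin receptor, Fgfbp1, a carrier of fibroblast growth factors, Mgam, a brush border glucosidase, and Ppa1, a pyrophosphatase, with r of 0.87 to 0.89.

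Aqp3 was close to absent. It had 15 UMIs in BT mutant, 12 in BT WT and 13 in PBS cells, and 8 of these 40 lay in the epithelial groups. Colonocyte-like cells had 1, 1 and 5 UMIs, or 0.0508, 0.0553 and 0.493 CPM. Gsdmc4-led cells had 0 UMIs in every library, which allows a level of up to 0.259 CPM in BT mutant, 0.424 CPM in BT WT and 0.628 CPM in PBS (3 UMIs of the total). T-like cells gave 12 UMIs and an unnamed cluster led by Ctla4, Cxcr6 and Gata3 another 10, of which 7 were BT mutant, 3 BT WT and 0 PBS. These counts do not show a difference between libraries.

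Of the other 7 aquaporin genes, Aqp7, which carries glycerol and is known from fat cells and capillaries, reached 20 UMIs in a library. It had 30 UMIs in BT mutant, 45 in BT WT and 35 in PBS, and 89 of these 110 were in endothelial-like cells. Its level there was 104 CPM (69.8 to 150) in BT mutant, 174 CPM (126 to 234) in BT WT and 73.1 CPM (42.6 to 117) in PBS. BT mutant was at 0.5997 of BT WT (0.361 to 0.983), where 10.6% of genes were called lower, and BT WT at 2.38 times PBS (1.33 to 4.45), where 11.7% were called higher. Of the 17 PBS UMIs there, 16 came from 5 cells. Another 12 UMIs were in adipocyte-like cells of the PBS library. Aqp12 had 14, 14 and 5 UMIs, Aqp9 7, 1 and 6, and Aqp2 0, 0 and 2, while Aqp5, Aqp6 and Mip had 0 in kept cells of every library.

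Other genes that move salt, water, glycerol and hydrogen peroxide were read in the same colonocyte-like cells. Over all genes 3.58% were called higher and 3.79% lower in BT mutant over BT WT, and counts of 1 in a list of this length are near that share. In that comparison 1 of 23 salt and water genes was higher and 1 lower, with a list median of -0.10 against -0.06 over all genes. The lower one was Atp12a, at 121 CPM in BT mutant and 572 CPM in BT WT (0.211-fold, 0.202 to 0.221), which is also one of the genes most like Aqp8. The higher one was Clcn2, a chloride channel, at 261 and 135 CPM. In the glycerol list 1 of 12 genes was higher, Agpat2, and 0 lower. In the hydrogen peroxide list 2 of 17 were higher and 0 lower: Txn1, thioredoxin, at 3854 CPM in BT mutant and 1640 CPM in BT WT, and Prdx5 at 394 and 239.6 CPM.

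The hydrogen peroxide list had more genes lower than higher against PBS, where 89.3% of colonocyte-like cells lie in a cluster of that library alone led by Gsta1; the part of that cluster was not tested, and the lists were read on the CPM scale only. Over all genes 7.46% were called lower and 14% higher in BT WT over PBS, and 4.53% lower and 6.3% higher in BT mutant over PBS. In BT WT over PBS 12 of the 17 hydrogen peroxide genes were lower and 3 higher (median log2 ratio -1.02, against 0.11 over all genes), and in BT mutant over PBS 8 were lower and 2 higher (median -0.58, against 0.06). Cat, catalase, was at 27.9 CPM in BT mutant, 19.8 CPM in BT WT and 219.8 CPM in PBS. Prdx6, a peroxiredoxin, was at 1661, 1617 and 4100 CPM, and Prdx1 at 239.8, 172 and 916 CPM. Duox2, the epithelial oxidase that makes hydrogen peroxide, was higher in both colonized libraries, at 53.3 CPM in BT mutant and 60.9 CPM in BT WT, against 5.62 CPM in PBS.

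The salt and water list was mixed against PBS, with 4 genes higher and 5 lower of 21 in BT mutant and 5 higher and 3 lower of 23 in BT WT, to be read against the same shares of all genes. Atp1b1, a beta subunit of the sodium-potassium pump, was at 1796 CPM in BT mutant and 1734 CPM in BT WT, against 2756 CPM in PBS. Ano1, a chloride channel, was at 33.5, 39.6 and 10.5 CPM, and Sgk1, a kinase that acts on sodium transport, at 461, 314 and 854 CPM. Of 13 glycerol genes, 1 was higher and 2 lower in BT mutant and 1 higher and 3 lower in BT WT, against those shares too. Gk, glycerol kinase, was at 9.26, 6.97 and 28.7 CPM, Lpin2 at 79.99, 79.3 and 201 CPM, and Gpd1l at 32.1, 31.1 and 12.2 CPM. In Gsdmc4-led cells 0 of 17 hydrogen peroxide genes were called in BT WT over PBS, where 1.91% of all genes were, and Atp12a was again lowest in BT mutant, at 2.93 CPM, against 21.6 CPM in BT WT and 85.8 CPM in PBS.

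**Figure D5:**
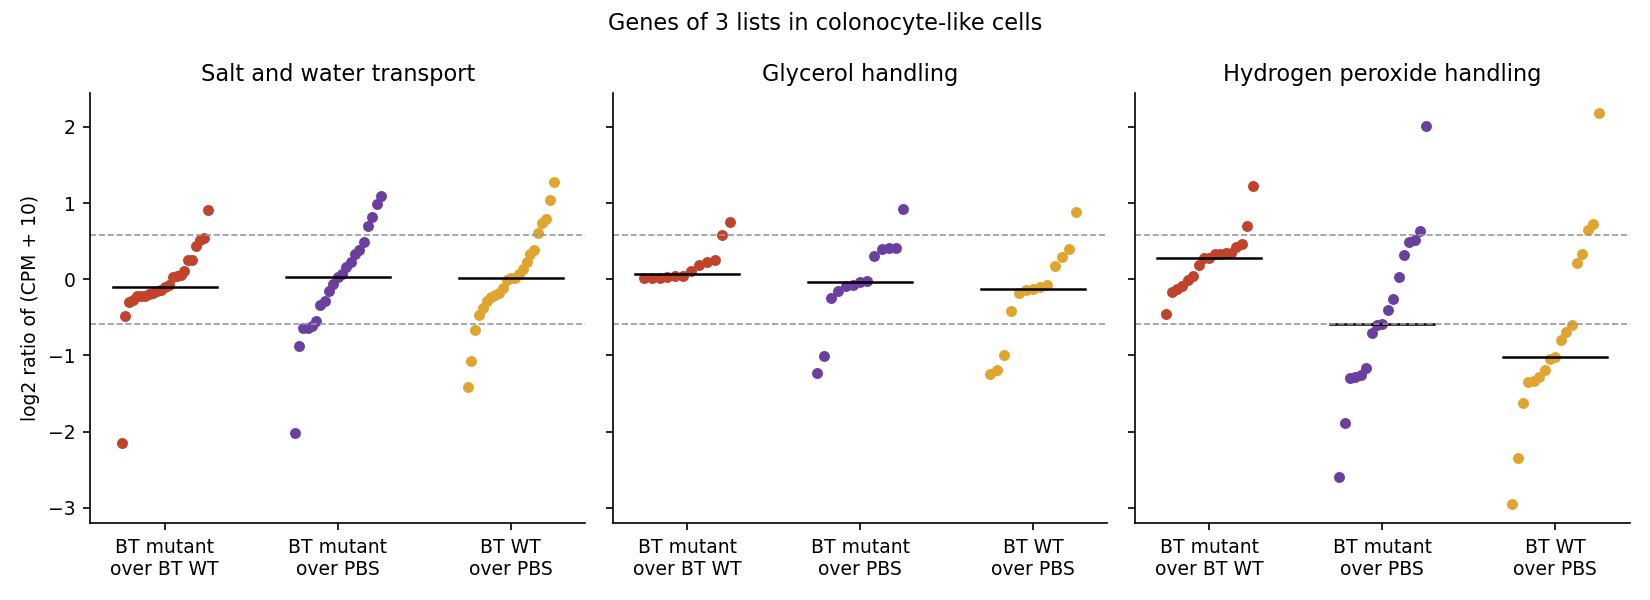
log2 ratio of (CPM + 10) between libraries for each measured gene of 3 lists in colonocyte-like cells, 1 point a gene sorted by value, with a line at the median and dashed lines at 1.5-fold. In the hydrogen peroxide list most points lie below the lower dashed line for BT WT over PBS (12 of 17), while for BT mutant over BT WT 0 do.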

How the data were processed

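Values are raw UMI counts, whole numbers for each gene and barcode, as the authors deposited them; per the file headers the matrices came from Cell Ranger 5.0.0. Per the submitters' processing notes STAR and mm10 were also used; cell calling, annotation release and strand setting were not stated there. The members, lists and markers were chosen with earlier results of these data known.

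Barcodes with at least 300 genes and at most 25% mitochondrial UMIs were clustered together with scanpy 1.11.5 (2000 variable genes, 30 components, 15 neighbours, Leiden resolution 1.0). Aquaporin, mitochondrial and ribosomal genes, antigen receptor genes and sex-linked genes were left out of clustering. Clusters were named from 22 marker sets by a scoring rule chosen after the clusters were seen (score of at least 1.5, at least 3 markers). Scrublet called 103 BT mutant, 3 BT WT and 0 PBS doublets, so it did not work and doublets remained. Folds are CPM ratios, whose 95% intervals condition on the summed count (exact binomial); Clopper-Pearson intervals were used for shares of cells (scipy 1.17.1). Ratios for classes under 50 cells were added after seeing the data, with a minimum of 25 cells. Intervals were tested on simulated Poisson sums only. That is the model they assume, so the test does not cover the uneven spread of UMIs over cells. Named genes were the members, other aquaporins with at least 20 UMIs in a library, the 5 genes most like each member of at least 200 UMIs (among genes of at least 50 CPM), and, of called list genes, the 2 most abundant and the 2 with the largest ratio in each comparison. One gene that this rule names is not reported here. The vessel genes, the split by Hoxb13 and that of Aqp1 in crypt groups by mitochondrial share were chosen after values were seen.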

Additional observations from a re-analysis of the deposited data

Results flagged for a closer look

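Aqp8 in BT WT over PBS went in opposite directions in different epithelial groups, and the difference between groups was not tested. The log2 ratio was -0.61 in colonocyte-like cells and -0.76 in Guca2b-led cells, but 2.27 in goblet-like cells, where the summed colonocyte markers were also highest in BT WT and the PBS level lay below that of B-like cells.

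Aqp4 in BT mutant over BT WT also went in opposite directions, again untested. The log2 ratio was 0.59 in colonocyte-like cells and 2.71 in tuft-like cells, where 5 cells gave 78 of 89 UMIs, against -0.78 in Mptx1-led cells. Among colonocyte-like cells above 8000 UMIs it was 0.07. Within their single clusters it was 0.07 (Slc17a4-led), -0.12 (Slc13a1-led), 0.26 (Ifit1bl1-led, 5 BT mutant UMIs) and -0.30 (Car1-led), none of them called.

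Barcodes above the mitochondrial limit were left out of the comparisons, apart from the alternative with no mitochondrial limit, and still held aquaporin UMIs. There were 1874 of them with at least 300 genes in BT mutant, 1687 in BT WT and 952 in PBS. Levels in them pool every class, so they are not levels of colonocyte-like cells. Aqp8 was at 449.5 CPM in BT mutant and 1033 CPM in BT WT, against 989 CPM in PBS, so the pooled BT WT level was slightly above that of PBS. In colonocyte-like cells with no mitochondrial limit BT WT stayed below PBS, at a log2 ratio of -0.46. In BT mutant Aqp4 was at 70.5 CPM, Aqp1 at 4.36 CPM and Aqp11 at 9.29 CPM, against 33.5, 1.66 and 4.05 CPM in PBS.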

How the results depend on the processing

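All values here are log2 ratios. For Aqp8 in colonocyte-like cells BT mutant over BT WT (-1.07) was past 1.5-fold in 18 of 18 alternatives and BT mutant over PBS (-1.68) in 18 of 18, while BT WT over PBS (-0.61) was past it in 10 of 18, each in the same direction. In the order BT mutant over BT WT, BT mutant over PBS and BT WT over PBS, Aqp8 was at -1.17, -1.75 and -0.58 with classes from each cell's markers, -1.52, -1.86 and -0.34 with libraries clustered apart, -0.91, -1.83 and -0.91 with median-ratio scaling, and -1.03, -1.52 and -0.49 with each cell weighing the same. With libraries clustered apart the class did not hold the same kinds of cells in each library. Chosen after seeing the data, cells over 8000 UMIs gave -1.01, -1.80 and -0.79, and those with a Hoxb13 UMI -0.67, -1.49 and -0.82. Leiden resolution 2.0 gave -1.16 and -1.77 for BT mutant over BT WT and over PBS. For BT mutant over PBS and BT WT over PBS, a mitochondrial limit of 10% gave -1.88 and -0.79, no limit -1.55 and -0.46, thinning -1.57 and -0.52, the Guca2b-led cells added -1.62 and -0.54, and all 7 epithelial groups -1.50 and -0.41, these last 2 settings also chosen after seeing the data. Without mitochondrial UMIs in the total BT WT over PBS was -0.58.

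Aqp4 in Gsdmc4-led cells (-0.51, 0.10 and 0.61 in the same order) was at -0.60, 0.92 and 1.51 with the 10% limit, -0.59, 0.18 and 0.78 with equal weight, 0.48 and 0.96 over PBS when thinned, and -0.43 for BT mutant over BT WT with median-ratio scaling. Aqp1 in endothelial-like cells (0.69, 1.29 and 0.60) was at 1.24 for BT mutant over BT WT and 0.13 for BT WT over PBS with equal weight, at 0.46 for BT mutant over PBS and reversed to -0.20 for BT WT over PBS with classes from each cell's markers, and at 0.9991 for BT mutant over PBS when thinned. The cause of these shifts was not tested. No paired analysis was possible because each group is 1 library with no replicate number. Aqp1 there rests on 29 to 65 cells a library, and Aqp3 could not be compared at this depth.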
